A study of Homo sapiens with 6 samples.

Results

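The 34 genes described here make and use the cell's thiol reducing power, or are classical targets or regulators of NRF2, the transcription factor of the antioxidant response. They were chosen by name and fall into 5 roles: NRF2 regulators, glutathione, thioredoxin and peroxiredoxin, NADPH supply, and detoxification. All 34 matched a row of the deposited table, out of 60675 rows in all. The filter on low counts kept 31 of them among 16503 genes tested. GPX2, TXNIP and CBR1 were not tested.

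The RNA came from HCT116, a line of human colorectal cancer cells, and made up 3 groups with 2 libraries in each. The siPIR cells carried a small interfering RNA against PIR for 48 h. They are labelled as a pirin knockdown, and their treatment label also names SP2509, so whether they received the compound is not settled by the labels. The SP2509 cells, labelled wild type, were given that compound, known as an inhibitor of the lysine demethylase LSD1, at 3 uM for 48 h. The untreated cells are labelled wild type. A solvent arm (DMSO) appears in the protocol, without a word on whether the untreated cells belong to it. No library with a non-targeting small interfering RNA was analysed here, and every group is the same cell line. The series title presents SP2509 as a repressor of the telomerase gene found in a chemical screen.

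NRF2, encoded by NFE2L2, is held at low levels by KEAP1, an adaptor that presents it to a ubiquitin ligase. Oxidants and electrophiles modify cysteines of KEAP1, NRF2 accumulates, pairs with a small MAF protein and binds antioxidant response elements, which BACH1 occupies as a repressor. Its targets make glutathione, reduce thioredoxin, supply NADPH and remove quinones, aldehydes and their conjugates. Peroxiredoxins destroy peroxides with a reactive cysteine that thioredoxin, or for a further oxidised form sulfiredoxin, restores. PIR itself, an iron-binding nuclear protein, has been described as an NRF2 target.

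The libraries held between 22622441 and 28816590 counts each. PIR had 1.93 and 2.03 CPM in siPIR libraries, 14.8 and 11.8 CPM in SP2509 libraries and 14.4 and 14.6 CPM in untreated libraries. CPM are counts scaled to library size with TMM factors (trimmed mean of M values). PIR fell by 2.87 on the log2 scale in siPIR cells against untreated cells (edgeR adjusted p = 3.39e-09), and by 1.88 with an offset for transcript GC content and length (edgeR adjusted p = 6.38e-09). Between SP2509 and untreated cells its log2 fold change was -0.12 (edgeR adjusted p = 0.406). The siPIR libraries stood apart in composition: the mean GC content of their counted transcripts was 42.3% to 42.8%, against 48.3% to 48.7% in the other 4 libraries. Mitochondrial ribosomal RNA took 6.33% and 6.93% of counts in SP2509 libraries, against 1.14% to 1.63% in the other 4. Summed levels of 7 epithelial markers were 1317 to 1325 CPM in siPIR cells, 4626 to 4680 CPM in SP2509 cells and 3559 to 3628 CPM in untreated cells, with CDH17 and VIL1 at or near 0. The markers did not move together: EPCAM had 758 and 667 CPM in siPIR, against 203 and 221 CPM in untreated libraries, while KRT8 had 232 and 274 CPM in siPIR, against 1856 and 1848 CPM in untreated libraries. The part of these shifts in the results was not tested. Leukocyte markers summed to at most 0.194 CPM and endothelial ones to at most 1.58 CPM in any library. Fibroblast markers summed to 1.31 to 1.67 CPM in siPIR, 20.6 to 21.9 CPM in SP2509 and 22.3 to 25.2 CPM in untreated libraries, nearly all from COL1A1. Replicates of the 31 tested genes differed by a median absolute log2 ratio of 0.303 in siPIR, 0.0770 in SP2509 and 0.0762 in untreated cells.

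To show the letters the study's genes carry at their starts, RefSeq promoter windows (GRCh38.p14), running from 250 bases before to 50 after a transcript's start, were searched on both strands for TGACNNNGC, the core of the antioxidant response element. Of the 34 genes, 27 had a window, and 7 of these held a match: CBR1, GCLM, GPX2, KEAP1, ME1, PGD and TXNRD1. Matches stood in 8 of the 37 windows of these 27 genes, and in 13.3% of all 35116 windows of this length. The looser TGANNNNGC, which includes the first motif, was in 17 of the 37 windows (from 16 genes) and in 41.8% of all windows. A match describes letters only, and windows without one say nothing of elements farther away. The 4 genes shown next stand for the roles of regulator, glutathione, thioredoxin and NADPH supply. Each line runs 5′ to 3′ on the gene's strand, with the motif in capitals (its reverse complement where it lies on the opposite strand). They lie at chr19:10502722-10503021 (KEAP1, minus strand), chr1:93909381-93909680 (GCLM, minus), chr12:104286782-104287081 and chr12:104215529-104215828 (2 starts of TXNRD1, plus) and chr6:83431002-83431301 (ME1, minus).
KEAP1: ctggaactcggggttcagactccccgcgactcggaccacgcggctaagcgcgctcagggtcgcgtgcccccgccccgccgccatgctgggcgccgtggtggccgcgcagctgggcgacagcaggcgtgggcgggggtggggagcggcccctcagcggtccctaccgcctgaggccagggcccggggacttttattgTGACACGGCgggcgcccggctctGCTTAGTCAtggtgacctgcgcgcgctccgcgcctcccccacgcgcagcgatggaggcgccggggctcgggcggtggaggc
GCLM: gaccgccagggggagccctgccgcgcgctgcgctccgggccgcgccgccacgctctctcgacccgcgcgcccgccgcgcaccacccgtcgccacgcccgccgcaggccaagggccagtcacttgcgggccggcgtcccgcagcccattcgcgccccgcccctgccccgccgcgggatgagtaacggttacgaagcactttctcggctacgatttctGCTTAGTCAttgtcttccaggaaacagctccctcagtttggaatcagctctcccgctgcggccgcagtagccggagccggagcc
TXNRD1 downstream start: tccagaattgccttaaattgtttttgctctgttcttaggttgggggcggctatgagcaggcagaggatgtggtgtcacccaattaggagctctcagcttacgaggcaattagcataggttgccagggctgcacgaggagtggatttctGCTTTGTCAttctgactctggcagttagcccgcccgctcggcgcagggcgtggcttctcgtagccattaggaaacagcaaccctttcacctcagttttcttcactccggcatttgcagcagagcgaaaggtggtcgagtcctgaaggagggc
TXNRD1 upstream start: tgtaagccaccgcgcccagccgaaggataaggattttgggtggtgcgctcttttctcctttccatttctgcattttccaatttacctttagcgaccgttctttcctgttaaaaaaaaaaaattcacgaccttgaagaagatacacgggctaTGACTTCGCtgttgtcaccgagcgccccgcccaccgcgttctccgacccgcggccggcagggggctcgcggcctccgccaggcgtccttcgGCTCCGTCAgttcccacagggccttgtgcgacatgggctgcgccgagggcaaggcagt
ME1: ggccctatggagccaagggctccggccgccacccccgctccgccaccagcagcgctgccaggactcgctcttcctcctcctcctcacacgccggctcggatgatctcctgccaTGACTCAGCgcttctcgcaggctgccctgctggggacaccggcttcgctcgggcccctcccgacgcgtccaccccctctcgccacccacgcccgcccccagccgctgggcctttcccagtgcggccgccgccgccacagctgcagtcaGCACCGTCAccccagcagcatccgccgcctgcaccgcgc
Counting the first transcribed base as 1 and the base before it as -1, the matches began at -54 and -31 in KEAP1, -34 in GCLM, -102 in the downstream and -99 and -8 in the upstream window of TXNRD1, and -137 and 12 in ME1. GCLM and KEAP1 carried the same 9 letters on the opposite strand, TGACTAAGC. Among tested genes with a match, KEAP1, TXNRD1 and ME1 rose in SP2509 cells, and GCLM and PGD did not pass. Over all genes, 33.5% rose. With total counts alone the calls on KEAP1 and ME1 were lost (edgeR adjusted p = 0.0521 and 0.330), and PGD was called lower (0.00179). Any tie between a match and a change was not tested.

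SP2509-treated cells held more of the NRF2 regulators, of the glutathione-making enzyme GCLC and of thioredoxin reductase TXNRD1, and less of NQO1, ABCC2 and several peroxiredoxins. Of the 31 tested genes, 15 rose, 8 fell and 8 did not pass an adjusted p of 0.05 in edgeR's quasi-likelihood test. Over all 16503 genes, 33.5% rose and 35.1% fell (68.6% in either direction). The 31 genes had a median log2 fold change of 0.33, and all genes one of -0.04. With an offset for transcript GC content and length, 18 rose and 8 fell, beside 39.2% higher and 33.3% lower over all genes (72.5% in either direction). Scaled by total counts alone, the median of all genes lay at -0.43 and that of the 31 genes at -0.06, with 11 higher and 13 lower. In that setting 11890 of all 16503 genes were called in either direction, and their calls by direction were not counted. Under the main setting and each of 16 alternatives, 11 genes were called higher (NFE2L2, NFE2L1, BACH1, GCLC, GPX1, TXNRD1, SRXN1, AKR1B10, OSGIN1, TRIM16 and ABCC3) and 6 lower (PRDX2, PRDX3, PRDX6, TALDO1, NQO1 and ABCC2). How many of all genes were called in every setting was not counted, here or for the siPIR lists below. RNA from a whole culture cannot separate fewer cells expressing a gene from less RNA of it per cell.

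**Figure D1:**
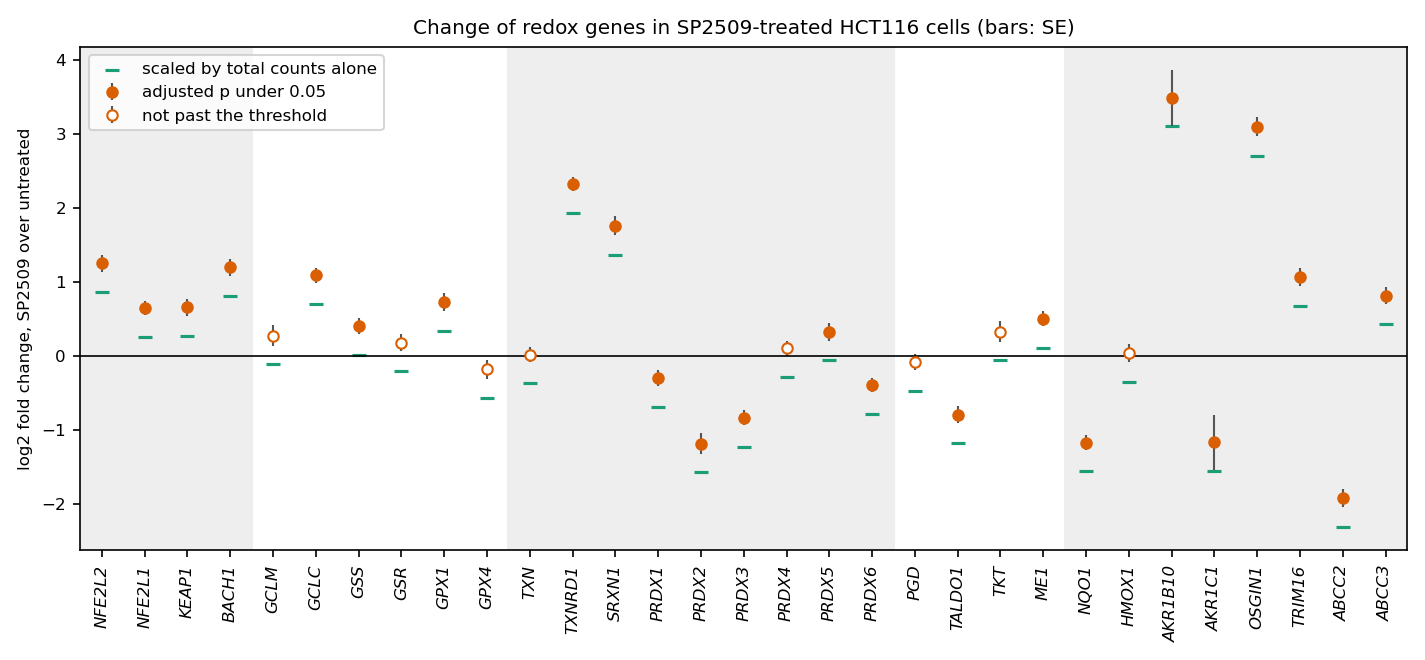
Log2 fold change of each of the 31 tested genes in SP2509 over untreated cells, grouped by role along the x axis; points are edgeR estimates, bars their SE, open points did not pass an adjusted p of 0.05, and short lines give the estimate scaled by total counts alone. The 4 regulators at the left all lie above 0, while the peroxiredoxins and detoxification genes lie on both sides.

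All 4 regulators rose in SP2509 cells, beside 33.5% of all genes, with a median log2 fold change of 0.93. NFE2L2 (chr2:177227595-177392697, GENCODE 29, GRCh38) had 187 and 190.0 CPM in SP2509 libraries, against 79.7 and 78.4 CPM in untreated libraries. It was 2.39-fold higher (log2 1.25, SE 0.114, edgeR adjusted p = 9.03e-07), and the groups did not overlap. BACH1, the repressor at the same elements, had 82.2 and 73.9 CPM in SP2509 libraries, against 35.2 and 32.6 CPM in untreated libraries. It was 2.30-fold higher (SE of the log2 value 0.113, edgeR adjusted p = 1.23e-06), and its groups did not overlap either. KEAP1 (chr19:10486120-10503741) had 115 and 115 CPM in SP2509 libraries, against 70.0 and 75.4 CPM in untreated libraries. The log2 fold change was 0.66 (edgeR adjusted p = 2e-04), and 0.27 with total counts alone (edgeR adjusted p = 0.0521), which misses the threshold. NFE2L1, a related factor known for control of proteasome genes, had 295 and 311 CPM in SP2509 libraries, against 197 and 188 CPM in untreated libraries (log2 fold change 0.65, edgeR adjusted p = 7.02e-05). Of the exon bases of NFE2L2, 17.6% lie also in a sense-overlapping non-coding gene, AC019080.1, so a small part of its reads may have been divided. That gene held 32 and 20 counts in SP2509 and 108 and 73 in untreated libraries, against 4767 and 4898, and 2881 and 2480, for NFE2L2.

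Of 6 tested glutathione genes, 3 rose, none fell and 3 did not pass, with a median log2 fold change of 0.34. These counts stand beside 33.5% higher and 35.1% lower over all genes. GCLC, the catalytic subunit of the enzyme that sets the rate of glutathione synthesis, had 156 and 153 CPM in SP2509 libraries, against 72.3 and 71.9 CPM in untreated libraries. That is 2.14-fold higher (SE of log2 0.102, edgeR adjusted p = 1.07e-06). GCLM, the modifier subunit of the same enzyme, had 36.6 and 36.0 CPM in SP2509 libraries, against 29.8 and 30.3 CPM in untreated libraries, so the libraries of the 2 groups were separate but close (log2 fold change 0.28, edgeR adjusted p = 0.0945). GSS, which adds glycine in the last step, had 64.2 and 72.7 CPM in SP2509 libraries, against 52.0 and 51.3 CPM in untreated libraries (log2 fold change 0.41, edgeR adjusted p = 0.00484). Its call was lost with upper-quartile scaling (adjusted p = 0.186), with total counts (0.911), and without replicate 2 of the SP2509 (0.0695) or untreated libraries (0.0552).

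Among the glutathione users, GPX1, which reduces hydrogen peroxide, had 254 and 284 CPM in SP2509 libraries, against 164 and 161 CPM in untreated libraries. GPX1 rose by 0.73 on the log2 scale (SE 0.125, edgeR adjusted p = 1.99e-04). GPX4, which reduces lipid hydroperoxides and restrains ferroptosis, had 119 and 126 CPM in SP2509 libraries, against 143 and 134 CPM in untreated libraries, and did not pass (log2 fold change -0.18, edgeR adjusted p = 0.237). GSR, which regenerates reduced glutathione from NADPH, had 174 and 166 CPM in SP2509 libraries, against 156 and 144 CPM in untreated libraries and did not pass either (edgeR adjusted p = 0.180). With the GC-length offset the estimate for GPX4 turned to 0.04, and it did not pass there either (edgeR adjusted p = 0.640). With upper-quartile and total-count scaling GPX4 was called lower (log2 fold change -0.41 and -0.57, edgeR adjusted p = 0.0130 and 0.00121). GCLM and GSR passed as higher with the offset (edgeR adjusted p = 0.00537 and 0.0176). All 6 libraries share an estimate of the spread, and the siPIR replicates differed most. Fitted with only the 4 libraries compared, GCLM and GSR passed as higher and GPX4 as lower (edgeR adjusted p = 0.00202, 0.0127 and 0.0216). Without siPIR replicate 1, GCLM, GSR and GPX4 passed (edgeR adjusted p = 0.00131, 0.0121 and 0.0329), and likewise without siPIR replicate 2 (0.00140, 0.0121 and 0.0329). GPX2, an intestinal glutathione peroxidase, was listed with 1 count in 1 SP2509 library and 0 elsewhere.

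The thioredoxin and peroxiredoxin genes went both ways, as did all genes, of which 33.5% rose and 35.1% fell. Of 9 tested, 3 rose, 4 fell and 2 did not pass, with a median log2 fold change of 0.02. TXNRD1 (chr12:104215779-104350305), the cytosolic selenoenzyme that reduces thioredoxin, had 1536 and 1513 CPM in SP2509 libraries, against 305 and 303 CPM in untreated libraries. It was 5.01-fold higher (log2 2.33, SE 0.0991, edgeR adjusted p = 2.08e-09). Its substrate TXN had 169 and 158 CPM in SP2509 libraries, against 159 and 164 CPM in untreated libraries, and the groups overlapped (log2 fold change 0.02, SE 0.0980, edgeR adjusted p = 0.878). SRXN1 (chr20:646615-653370), the sulfiredoxin that revives overoxidised peroxiredoxins, had 27.4 and 28.6 CPM in SP2509 libraries, against 9.18 and 7.27 CPM in untreated libraries. It was 3.39-fold higher (SE of log2 0.131, edgeR adjusted p = 3.16e-07). Thus, with TMM scaling, the reductase and the sulfiredoxin were raised while the level of thioredoxin RNA did not pass a test of difference. With total counts alone TXN was called lower (log2 fold change -0.37, edgeR adjusted p = 0.00303), and with upper-quartile scaling it just missed the threshold (-0.22, 0.0504). TXNIP, the inhibitor that binds thioredoxin, was listed with 1 count in 1 siPIR library and 0 in the other 5 libraries. A count of 0 allows up to 3 counts, or 0.0830 to 0.157 CPM by library, for counting error alone. The rule by which reads were assigned to genes is not given, so a 0 may not mean that the RNA was absent.

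Among the 6 peroxiredoxins, the mitochondrial PRDX3 had 134 and 135 CPM in SP2509 libraries, against 243 and 237 CPM in untreated libraries. It was 1.79-fold lower (SE of log2 0.102, edgeR adjusted p = 1.16e-05). The cytosolic PRDX2 had 53.6 and 57.7 CPM in SP2509 libraries, against 132 and 121 CPM in untreated libraries and was 2.28-fold lower (edgeR adjusted p = 1.02e-05). These were the 2 deepest falls of the family, and in neither did the groups overlap. PRDX6, which uses glutathione in place of thioredoxin, had 129 and 134 CPM in SP2509 libraries, against 172 and 173 CPM in untreated libraries (log2 fold change -0.39, edgeR adjusted p = 0.00249). PRDX1, a cytosolic peroxiredoxin and the highest of the family per transcript length, had 642 and 592 CPM in SP2509 libraries, against 737 and 783 CPM in untreated libraries (log2 fold change -0.30, edgeR adjusted p = 0.0231). PRDX5, found in several compartments, had 201 and 193 CPM in SP2509 libraries, against 151 and 163 CPM in untreated libraries (log2 fold change 0.33, edgeR adjusted p = 0.0292). Both of these calls were lost when any SP2509 or untreated library was left out, and held without either siPIR library. The edgeR adjusted p of PRDX1 was 0.0692 and 0.223 without SP2509 replicate 1 or 2, and 0.0865 and 0.171 without untreated replicate 1 or 2. For PRDX5 the 4 values were 0.130 and 0.0737 without an SP2509 library, and 0.188 and 0.0829 without an untreated one, and with total counts alone its direction turned. PRDX4, of the endoplasmic reticulum, had 64.8 and 62.1 CPM in SP2509 libraries, against 58.3 and 59.6 CPM in untreated libraries and did not pass (edgeR adjusted p = 0.372).

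Of the 4 genes of NADPH supply, 1 rose, 1 fell and 2 did not pass, beside 33.5% higher and 35.1% lower over all genes. TALDO1, the transaldolase of the non-oxidative pentose phosphate pathway, had 61.2 and 61.2 CPM in SP2509 libraries, against 107 and 105 CPM in untreated libraries. It was 1.73-fold lower (SE of log2 0.111, edgeR adjusted p = 3.75e-05). TKT, the transketolase of the same branch, had 517 and 547 CPM in SP2509 libraries, against 431 and 415 CPM in untreated libraries. It missed the threshold (log2 fold change 0.33, edgeR adjusted p = 0.0575), although its groups did not overlap. In the fit of only the 4 libraries compared TKT passed (edgeR adjusted p = 4.60e-05), as it did with the offset (5.69e-05). It passed without siPIR replicate 1 or 2 (edgeR adjusted p = 3.57e-05 and 3.63e-05) and in DESeq2 (adjusted p = 0.0306). ME1, the cytosolic malic enzyme that makes NADPH, had 85.0 and 80.6 CPM in SP2509 libraries, against 56.8 and 60.1 CPM in untreated libraries (log2 fold change 0.50, edgeR adjusted p = 8.01e-04, and 0.330 with total counts alone). PGD, the NADPH-making dehydrogenase of the oxidative branch, had 165 and 160.0 CPM in SP2509 libraries, against 169 and 175 CPM in untreated libraries (edgeR adjusted p = 0.502). With upper-quartile and total-count scaling PGD was called lower (log2 fold change -0.32 and -0.47, edgeR adjusted p = 0.0203 and 0.00179).

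The detoxification genes moved strongly in both directions: of 8 tested, 4 rose, 3 fell and 1 did not pass. Shares over all genes were 33.5% higher and 35.1% lower. OSGIN1 (chr16:83948282-83966332), a growth inhibitor induced by oxidative stress, had 77.0 and 97.1 CPM in SP2509 libraries, against 10.5 and 9.71 CPM in untreated libraries. It was 8.59-fold higher (log2 3.10, SE 0.131, edgeR adjusted p = 1.96e-09). AKR1B10, an aldo-keto reductase of aldehydes and retinal, had 58 and 55 counts in SP2509 libraries, against 7 and 6 counts in untreated libraries. At this low level the estimate was 11.2-fold higher, with an SE of 0.381 on the log2 scale (edgeR adjusted p = 4.37e-06), and both SP2509 libraries stood above both untreated ones. TRIM16, a ubiquitin ligase tied to NRF2 signalling, had 28.5 and 30.1 CPM in SP2509 libraries, against 14.5 and 13.5 CPM in untreated libraries (2.09-fold higher, edgeR adjusted p = 6.17e-06). Of its exon bases, 23.5% are shared with a read-through gene, AC005324.3, which held at most 5 counts in any library. ABCC3, an exporter of conjugates at the basolateral membrane, had 61.9 and 58.0 CPM in SP2509 libraries, against 33.1 and 34.9 CPM in untreated libraries (1.76-fold higher, edgeR adjusted p = 4.02e-05).

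The falls were in genes of the same functions. NQO1 (chr16:69706996-69726951), the quinone reductase often used as a readout of NRF2, had 131 and 119.6 CPM in SP2509 libraries, against 295 and 271 CPM in untreated libraries. It was 2.26-fold lower (log2 -1.17, SE 0.100, edgeR adjusted p = 5.3e-07), opposite in direction to TXNRD1, GCLC, SRXN1 and OSGIN1. ABCC2 (chr10:99782640-99852594), the apical exporter of glutathione conjugates, had 103 and 86.4 CPM in SP2509 libraries, against 324 and 395 CPM in untreated libraries. It was 3.80-fold lower (SE of log2 0.123, edgeR adjusted p = 5.02e-08), so the 2 exporters of the family went opposite ways. AKR1C1, a reductase of ketosteroids, had 9 and 10.5 estimated counts in SP2509 libraries, against 33 and 24 in untreated libraries (log2 fold change -1.17, SE 0.369, edgeR adjusted p = 0.0131). Reads of AKR1C1 can be split with near-identical paralogs, and its call was lost in DESeq2 (adjusted p = 0.134) and in edgeR without SP2509 replicate 1 (0.0763), SP2509 replicate 2 (0.0565) or untreated replicate 1 (0.0994). HMOX1, which opens the heme ring and is repressed by BACH1, had 15.9 and 17.9 CPM in SP2509 libraries, against 17.4 and 15.5 CPM in untreated libraries, overlapping ranges with a log2 fold change of 0.04 (edgeR adjusted p = 0.792). CBR1, a carbonyl reductase, was listed at 0 in all 6 libraries, and as for TXNIP this may depend on how reads were assigned to genes.

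**Figure D2:**
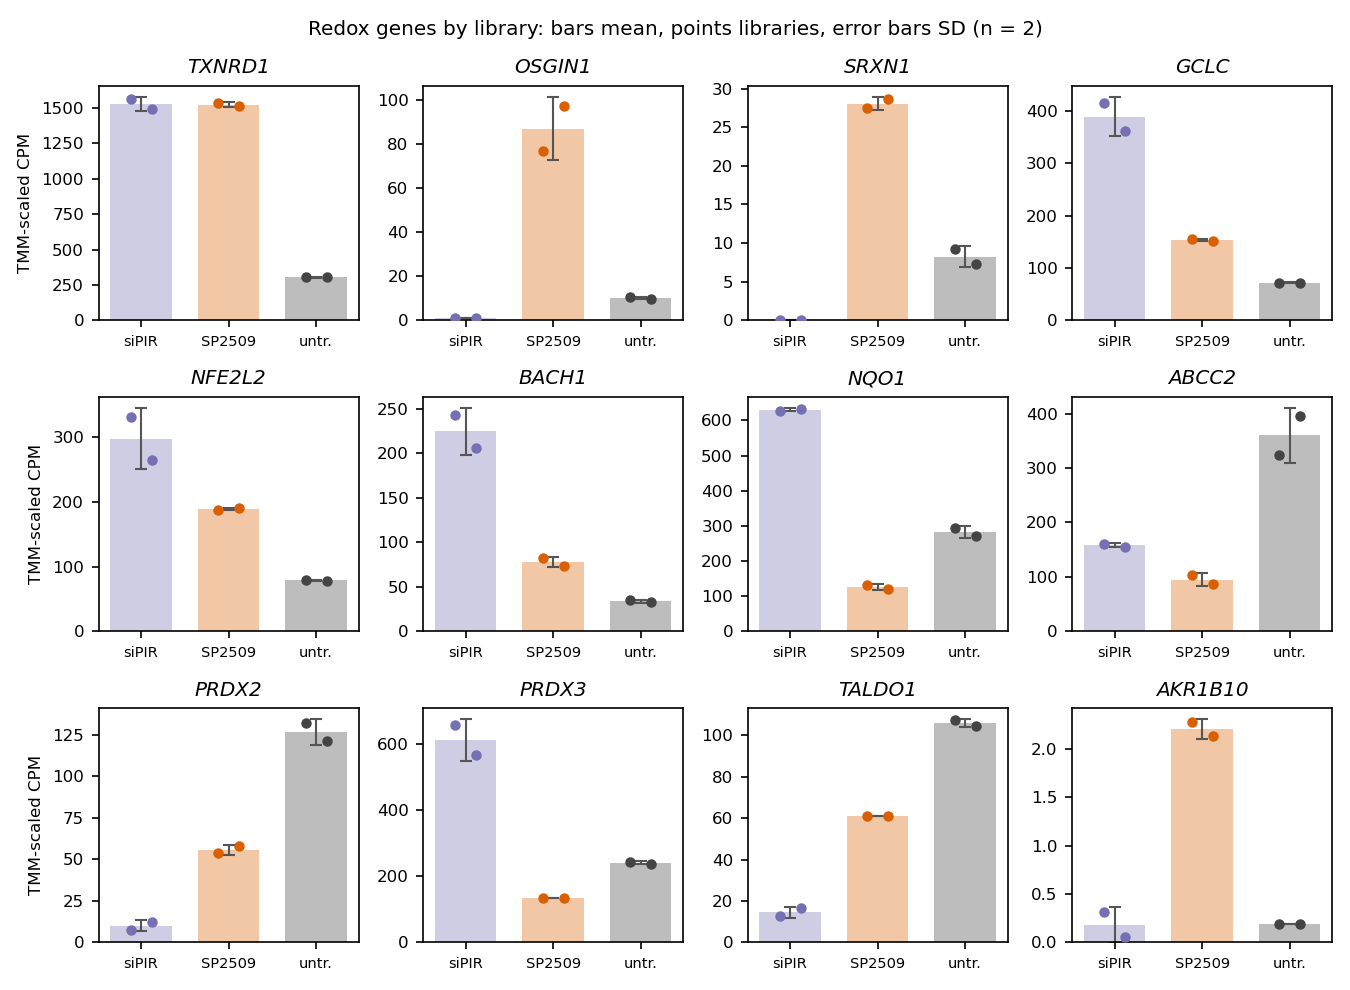
TMM-scaled CPM of 12 of the genes in siPIR, SP2509 and untreated libraries (x axis); bars are means, points single libraries and error bars the SD (n = 2; the error bar of AKR1B10 in siPIR reaches the axis at 0). TXNRD1, GCLC, NFE2L2 and BACH1 are above untreated in both other groups, OSGIN1 and SRXN1 lie above it in SP2509 and below it in siPIR on this scale (with the offset OSGIN1 turns to above it in siPIR), and NQO1 and PRDX3 lie below untreated in SP2509 and above it in siPIR.

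The other genes of the pathway were followed in a list of 80 further NRF2 and thiol genes, 74 of them tested. In SP2509 cells 30 rose, 30 fell and 14 did not pass, beside 33.5% higher and 35.1% lower over all genes, with a median log2 fold change of -0.10. The regulators among them leaned upward, with 9 of 11 higher and 1 lower, a count read against the same shares of all genes, as are those of the other roles. MAFF, a small MAF partner of NRF2 and BACH1, had 112 and 105 CPM in SP2509 libraries, against 13.3 and 11.7 CPM in untreated libraries (log2 fold change 3.11, SE 0.112, edgeR adjusted p = 5.64e-10). SLC7A11 and SLC3A2 encode the transporter that brings in cystine, the precursor for glutathione. SLC7A11 had 154 and 136 CPM in SP2509 libraries, against 26.0 and 23.2 CPM in untreated libraries (log2 fold change 2.55, edgeR adjusted p = 2.75e-09). SLC3A2 had 556 and 569 CPM in SP2509 libraries, against 121 and 117 CPM in untreated libraries (log2 fold change 2.24, edgeR adjusted p = 2.91e-09). SESN2, a stress-induced sestrin, had 153 and 173 CPM in SP2509 libraries, against 16.4 and 15.1 CPM in untreated libraries (log2 fold change 3.37, edgeR adjusted p = 1e-09). SLC7A11, SLC3A2 and SESN2 are also known as targets of ATF4, the factor of the amino acid response.

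Of the other 21 tested glutathione genes, 7 rose and 11 fell, and of 17 thioredoxin and peroxide genes 5 rose and 9 fell, with a median log2 fold change of -0.55. MSRB1, a methionine sulfoxide reductase, averaged 4.35 ± 0.210 CPM in SP2509 libraries and 21.2 ± 1.11 CPM in untreated libraries (SD, n = 2 each; log2 fold change -2.28, edgeR adjusted p = 1.93e-08). TXNRD3, a relative of TXNRD1, fell where TXNRD1 rose, with 5.42 and 5.55 CPM in SP2509 libraries, against 24.7 and 21.8 CPM in untreated libraries (log2 fold change -2.08, edgeR adjusted p = 4.3e-08). SESN3, a sestrin, likewise went opposite to SESN2 (log2 fold change -2.09, edgeR adjusted p = 6.62e-08), and the glutathione transferase GSTK1 fell by 1.17 on the log2 scale (edgeR adjusted p = 6.78e-07). Of 8 other NADPH genes 4 rose and 4 fell, and of 17 other detoxification and heme genes 5 rose, 5 fell and 7 did not pass.

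**Figure D3:**
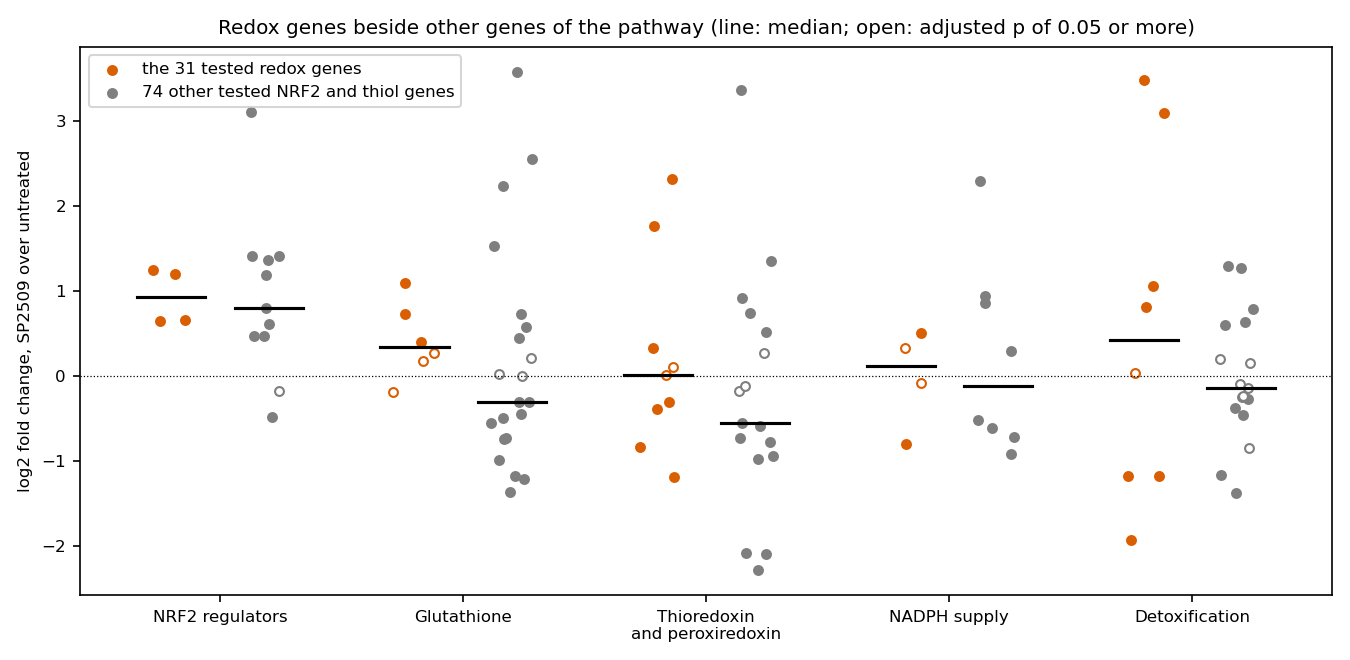
Log2 fold change in SP2509 over untreated cells for the 31 tested genes and for 74 other tested NRF2 and thiol genes, by role on the x axis; lines are medians and open points did not pass an adjusted p of 0.05. Regulators lie mostly above 0 in both sets, and the other 4 roles spread on both sides of 0.

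In siPIR cells the fold changes of these genes followed the GC content of their transcripts, as did those of all genes. Of the 31 tested genes, 14 rose, 16 fell and 1 did not pass against untreated cells, where 39.3% of all genes rose and 46.9% fell (86.1% in either direction). Among the 17 genes with transcripts of at least 50% GC, 2 rose and 15 fell. Among the 14 below 50% GC, 12 rose, 1 fell and 1 did not pass. Over all genes, the median log2 fold change was 1.86 at 35% to 40% GC, 0.06 at 45% to 50% and -4.11 at 60% to 65%. For this reason siPIR values are also given after an offset that removes, per library, the trend of log2 CPM with transcript GC and length. With the offset, 14 rose, 9 fell and 8 did not pass, against 33.9% higher and 29.3% lower over all genes (63.3% in either direction). With the offset the median of all genes was still -0.17 at 60% to 65% GC, where KEAP1, GPX1, GPX4, PRDX5 and OSGIN1 lie, and -0.54 at 65% and over. In siPIR against SP2509 cells it was -0.31 and -0.70 in these bins. The offset also removes any change in the cells that happens to follow GC, and the 2 cannot be told apart. For SRXN1, listed next as lower, the offset value has limits that are given below. Under the main setting and each of 16 alternatives, offset included, 7 genes were called higher (NFE2L2, BACH1, GCLC, GCLM, TXNRD1, PRDX3 and NQO1) and 9 lower (KEAP1, GSS, GPX1, SRXN1, PRDX2, PGD, TALDO1, TKT and ABCC2).

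**Figure D4:**
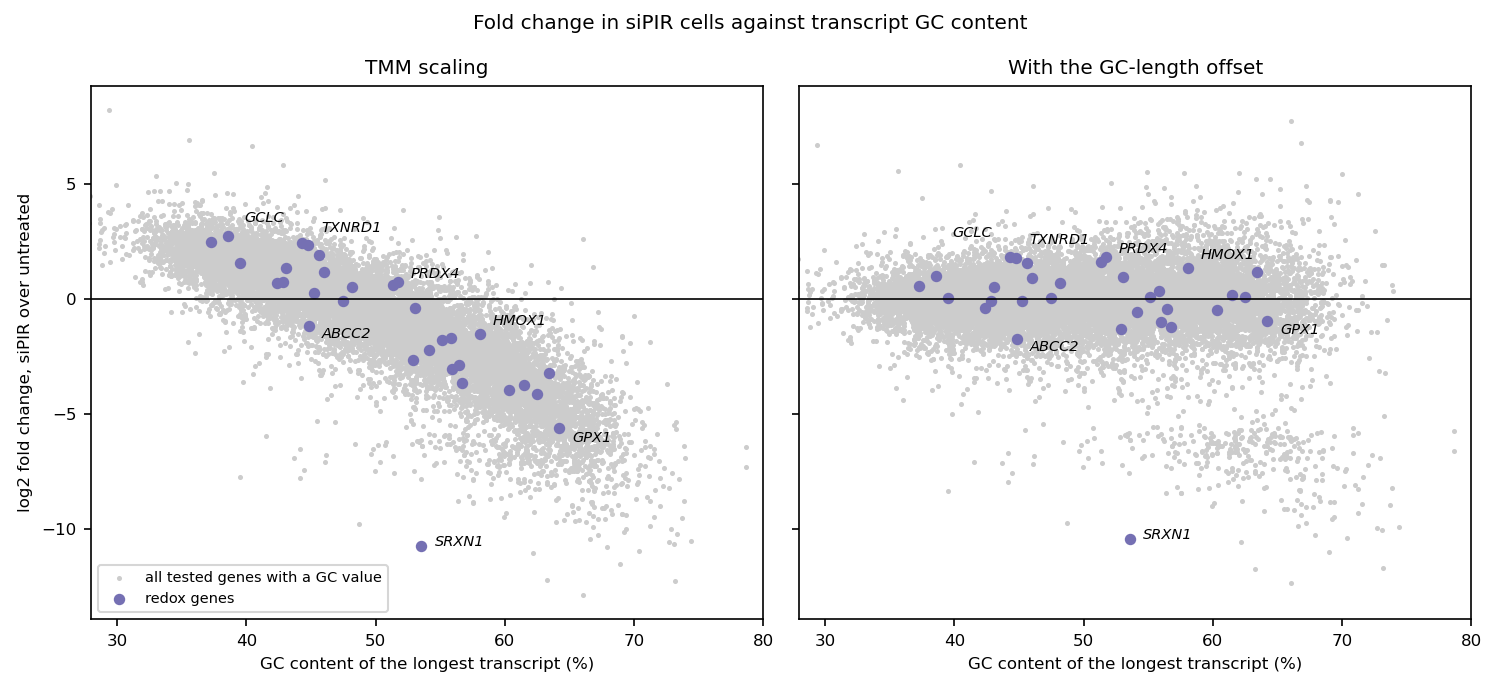
Log2 fold change in siPIR over untreated cells (y axis) against GC content of the longest transcript in percent (x axis), with TMM scaling at the left and with the GC-length offset at the right; grey points are all tested genes with a GC value between the axis limits and purple points the 31 redox genes, SRXN1 being a fitted value for a gene at 0 counts in siPIR. Most of the downward slope at the left is gone at the right, where a fall remains at the highest GC contents, and GPX1 stands at -5.63 at the left and -0.94 at the right.

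The activator and the repressor both rose in siPIR cells. NFE2L2 had 330.3 and 264 CPM in siPIR libraries, against 79.7 and 78.4 CPM in untreated libraries. Its log2 fold change was 1.91, and 1.58 with the offset (edgeR adjusted p = 8.57e-12). BACH1 had 243 and 206 CPM in siPIR libraries, against 35.2 and 32.6 CPM in untreated libraries (log2 fold change 2.73, and 0.99 with the offset, edgeR adjusted p = 2.37e-10). KEAP1, at 60.3% GC, had 3.81 and 5.57 CPM in siPIR libraries, against 70.0 and 75.4 CPM in untreated libraries. A log2 fold change of -3.95 shrank to -0.48 with the offset (edgeR adjusted p = 0.00136). NFE2L1 had 52.6 and 58.9 CPM in siPIR libraries, against 197 and 188 CPM in untreated libraries. The call on NFE2L1 was lost with the offset (log2 fold change -1.79, and 0.11 with the offset, edgeR adjusted p = 0.198).

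Both subunits of the glutamate-cysteine ligase rose in siPIR cells. GCLC had 415 and 362 CPM in siPIR libraries, against 72.3 and 71.9 CPM in untreated libraries (log2 fold change 2.43, and 1.81 with the offset, edgeR adjusted p = 1.7e-14). GCLM had 192 and 138 CPM in siPIR libraries, against 29.8 and 30.3 CPM in untreated libraries. At 37.3% GC, the lowest of the 31 genes, its log2 fold change was 2.46, and 0.55 with the offset (edgeR adjusted p = 7.86e-06). GSS, at 9.82 and 12.1 CPM in siPIR libraries, against 52.0 and 51.3 CPM in untreated libraries, fell with and without the offset (log2 fold change -2.23, and -0.59 with it, edgeR adjusted p = 2.62e-05). GPX1, at 64.2% the highest in GC of the 31 genes, had 2.46 and 4.11 CPM in siPIR libraries, against 164 and 161 CPM in untreated libraries. Its log2 fold change was -5.63, and -0.94 with the offset (edgeR adjusted p = 1.24e-06). GPX4 had 6.11 and 9.68 CPM in siPIR libraries, against 143 and 134 CPM in untreated libraries, a log2 fold change of -4.13, and 0.07 with the offset (edgeR adjusted p = 0.566). GSR had 239 and 191 CPM in siPIR libraries, against 156 and 144 CPM in untreated libraries and rose both ways (log2 fold change 0.52, and 0.70 with the offset, edgeR adjusted p = 6.92e-06), but lay at -0.10 with total counts alone.

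TXNRD1 had 1563 and 1496 CPM in siPIR libraries, against 305 and 303 CPM in untreated libraries. Its log2 fold change was 2.33 (SE 0.0991), and 1.79 with the offset (edgeR adjusted p = 1.99e-14), beside 2.33 in SP2509 cells over the same untreated libraries. SRXN1, raised in SP2509 cells, had 0 counts in both siPIR libraries, against 332 and 230 counts in untreated libraries. It was at least 52.6-fold lower in siPIR than in untreated cells, taking 3 counts per siPIR library as the limit of a 0. SRXN1 shares 85.0% of its exon bases with an overlapping gene on the same strand, AL121758.1, which had 0 counts in all 6 libraries, and the 406 bases of its longest transcript outside that overlap are 76.8% GC. The offset took the GC content of the whole longest transcript, 53.6%, so its value for SRXN1 may not fit the bases that were counted. The part of the overlap and of GC content in the zero was not tested.

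Of the peroxiredoxins, 3 rose in siPIR cells with and without the offset. PRDX1 had 1065 and 1235 CPM in siPIR libraries, against 737 and 783 CPM in untreated libraries (log2 fold change 0.60, 1.6 with the offset, edgeR adjusted p = 1.95e-13, but -0.02 with total counts alone). PRDX3 had 656 and 567 CPM in siPIR libraries, against 243 and 237 CPM in untreated libraries (log2 fold change 1.35, and 0.52 with the offset, edgeR adjusted p = 2.69e-06), where SP2509 cells had less of it than untreated cells. PRDX4 had 89.9 and 104 CPM in siPIR libraries, against 58.3 and 59.6 CPM in untreated libraries (log2 fold change 0.72, and 1.82 with the offset, edgeR adjusted p = 2.32e-14), and with total counts alone it did not pass (0.389). PRDX2 was the member of the family that fell both ways, at 7.57 and 12.3 CPM in siPIR libraries, against 132 and 121 CPM in untreated libraries (log2 fold change -3.67, and -1.20 with the offset, edgeR adjusted p = 4.93e-09). TXN, PRDX5 and PRDX6 passed with TMM scaling, with log2 fold changes of 0.73, -3.73 and 0.26. They did not pass with the offset, where these values were -0.07, 0.18 and -0.09. With total counts alone PRDX6 was called lower (log2 fold change -0.36, edgeR adjusted p = 0.00210). The call on PRDX6 was also lost without SP2509 replicate 1 or either untreated library, at edgeR adjusted p values of 0.0513, 0.130 and 0.150.

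The pentose phosphate genes PGD, TALDO1 and TKT fell in siPIR cells under both settings. PGD had 24.4 and 30.8 CPM in siPIR libraries, against 169 and 175 CPM in untreated libraries. The estimate for PGD was -2.64, and -1.29 with the offset (edgeR adjusted p = 1.25e-11). TKT had 40.6 and 61.2 CPM in siPIR libraries, against 431 and 415 CPM in untreated libraries (log2 fold change -3.05, and -1.0 with the offset, edgeR adjusted p = 4.64e-09). For TALDO1 the levels were 12.6 and 16.5 CPM in siPIR libraries, against 107 and 105 CPM in untreated libraries, and the log2 fold change -2.87, or -0.44 with the offset (edgeR adjusted p = 1.61e-04). ME1, the malic enzyme, stood at 185 and 162 CPM in siPIR libraries, against 56.8 and 60.1 CPM in untreated libraries, and its rise of 1.57 on the log2 scale was 0.06 with the offset (edgeR adjusted p = 0.508).

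NQO1, lower in SP2509 cells, was higher in siPIR cells, at 627 and 634 CPM in siPIR libraries, against 295 and 271 CPM in untreated libraries. On the log2 scale it rose by 1.16, and by 0.90 with the offset (edgeR adjusted p = 6.87e-10). ABCC2 fell under both settings, with 161 and 156 CPM in siPIR libraries, against 324 and 395 CPM in untreated libraries (log2 fold change -1.18, and -1.76 with the offset, edgeR adjusted p = 4.26e-11). It was the gene under 50% GC that fell. For 4 genes, HMOX1, OSGIN1, TRIM16 and ABCC3, the offset turned the direction and the test was passed on both sides. HMOX1 had 5.22 and 6.09 CPM in siPIR libraries, against 17.4 and 15.5 CPM in untreated libraries, and its log2 fold change was -1.54, or 1.34 with the offset (edgeR adjusted p = 3.19e-08). For OSGIN1, at 0.993 and 1.20 CPM in siPIR libraries, against 10.5 and 9.71 CPM in untreated libraries, the 2 estimates were -3.20 and, with the offset, 1.19 (edgeR adjusted p = 6.94e-04). TRIM16 had 9.40 and 12.1 CPM in siPIR libraries, against 14.5 and 13.5 CPM in untreated libraries, with estimates of -0.38 and, with the offset, 0.94, and without siPIR replicate 1 or untreated replicate 1 it missed the threshold (edgeR adjusted p = 0.167 and 0.105). ABCC3 had 8.88 and 11.9 CPM in siPIR libraries, against 33.1 and 34.9 CPM in untreated libraries, with estimates of -1.71 and, with the offset, 0.36. No direction in siPIR cells is read from these 4 genes.

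AKR1B10 had 6 and 1 counts in siPIR libraries, against 7 and 6 counts in untreated libraries, and did not pass (edgeR adjusted p = 0.928). AKR1C1 had 22.5 and 31 estimated counts (1.15 and 1.61 CPM) in siPIR libraries, against 33 and 24 (0.913 and 0.759 CPM) in untreated libraries. The scaled values did not overlap, and the call on AKR1C1 (log2 fold change 0.72, edgeR adjusted p = 0.0391) was lost with the offset (adjusted p = 0.316), in DESeq2 (adjusted p = 0.235) and without siPIR replicate 2 (0.277), SP2509 replicate 1 (0.0523), untreated replicate 1 (0.0800) or untreated replicate 2 (0.198).

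Of the 74 other NRF2 and thiol genes, 27 rose and 36 fell in siPIR cells, beside 39.3% and 46.9% of all genes, or 26 and 32 with the offset, beside 33.9% and 29.3%. SLC7A11, raised in SP2509 cells, had 164 and 151 CPM in siPIR libraries, against 26.0 and 23.2 CPM in untreated libraries (log2 fold change 2.68, and 0.45 with the offset, edgeR adjusted p = 4.56e-05). The sestrin SESN1 rose by 2.43 on the log2 scale, and by 1.64 with the offset (edgeR adjusted p = 6.12e-13). The epimerase RPE rose by 2.37, or 0.42 with the offset (edgeR adjusted p = 3.62e-05), while the thioredoxin-like TXNL1 stood at 1.91, and at 0.09 with the offset, where it did not pass (edgeR adjusted p = 0.291). MSRB1 stood at -5.07 and -1.97, and the glutathione transferase GSTP1 at -4.80 and -0.64, without and with the offset. MAFK, a small MAF, stood at -4.06, and at 0.30 with the offset (edgeR adjusted p = 0.0993).

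Since the treatment label of the siPIR cells also names SP2509, they were set against the SP2509 cells directly. Of the 31 tested genes, 14 rose, 16 fell and 1 did not pass in siPIR against SP2509 cells, where 38.8% of all genes rose and 45.5% fell (84.3% in either direction). With the offset, 11 rose, 15 fell and 5 did not pass, against 33.2% and 35.4% of all genes (68.6% in either direction). Under the main setting and all 16 alternatives 8 were higher in siPIR cells (NFE2L2, GCLC, GCLM, PRDX1, PRDX3, PRDX4, PRDX6 and NQO1) and 11 lower (KEAP1, NFE2L1, GSS, GPX1, SRXN1, PRDX5, PGD, TKT, AKR1B10, OSGIN1 and ABCC3). These values rest on the same siPIR libraries as the comparison with untreated cells.

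NQO1 had 627 and 634 CPM in siPIR libraries, against 131 and 119.6 CPM in SP2509 libraries, and its log2 fold change was 2.33, and 2.0 with the offset (edgeR adjusted p = 2.76e-15). PRDX3 had 656 and 567 CPM in siPIR libraries, against 134 and 135 CPM in SP2509 libraries (log2 fold change 2.18, and 1.32 with the offset, edgeR adjusted p = 1.63e-12). In these 2 genes the SP2509 libraries were lowest, the untreated ones between and the siPIR ones highest. PRDX4 and PRDX1 were also higher in siPIR cells, by 0.61 and 0.90 on the log2 scale, and by 1.67 and 1.85 with the offset (edgeR adjusted p = 5.18e-14 and 1.52e-14). NFE2L2 was higher by 0.66, or 0.25 with the offset (edgeR adjusted p = 0.0154), and GCLC by 1.34, or 0.69 (edgeR adjusted p = 2.59e-08). For BACH1 the offset turned the direction (1.53 without, -0.19 with it).

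TXNRD1 had 1563 and 1496 CPM in siPIR libraries, against 1536 and 1513 CPM in SP2509 libraries. The log2 difference was 0.01 with an SE of 0.0942 (edgeR adjusted p = 0.961), and -0.55 with the offset (edgeR adjusted p = 8.79e-07), so the estimate depended on the offset. SRXN1, at 0 counts in siPIR libraries, against 698 and 738 counts in SP2509 libraries, was at least 179-fold lower in siPIR cells. The limits given above for its overlap and GC content hold here too. Without the offset, the median of all genes at 65% GC and over was -5.52 in this comparison. OSGIN1 had 0.993 and 1.20 CPM in siPIR libraries, against 77.0 and 97.1 CPM in SP2509 libraries (log2 fold change -6.31, and -2.24 with the offset, edgeR adjusted p = 2.12e-09). AKR1B10 had 6 and 1 counts in siPIR libraries, against 58 and 55 counts in SP2509 libraries (log2 fold change -3.56, and -3.48 with the offset, edgeR adjusted p = 7.57e-07). KEAP1 and GPX1 were lower in siPIR cells by log2 values of -1.40 and -1.92 with the offset, where they had been -4.61 and -6.35 without it. PGD and TKT were lower too, with log2 fold changes of -2.56 and -3.39, and of -1.33 and -1.45 with the offset. The call on GSR (log2 fold change 0.34, edgeR adjusted p = 0.0153) was lost without siPIR replicate 1, SP2509 replicate 1 or SP2509 replicate 2. The log2 fold changes there were 0.17, 0.35 and 0.30. It was lost too with a block for the unexplained number in the sample descriptions (log2 fold change 0.12). In this contrast that block also leaves out siPIR replicate 1, the only library with its number, so it is not a separate check.

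Of the 74 other genes, 26 rose and 38 fell in siPIR against SP2509 cells, beside 38.8% and 45.5% of all genes, or 19 and 37 with the offset, beside 33.2% and 35.4%. The log2 fold change of SLC3A2 was -4.41, and -1.97 with the offset. SESN2 stood at -5.25 and, with the offset, -2.24, MAFF at -4.59 and -0.95, and MAFK at -5.42 and -1.37. SESN3 was higher by 3.35, or 1.35 with the offset, RPE by 3.09 or 1.06, the thioredoxin-like TXNDC9 by 2.73 or 1.31, and the glyoxalase GLO1 by 1.77 or 0.29. The edgeR adjusted p with the offset was 7.87e-15 for SLC3A2, 2.84e-13 for SESN2, 2.91e-10 for SESN3 and 0.00148 for GLO1.

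Between genes, levels are compared as CPM per kilobase of the longest annotated transcript. PRDX1 was highest in each group, at 932 in siPIR, 500.0 in SP2509 and 616 CPM per kilobase in untreated cells. TXNRD1 ranked 12 of 31 in untreated cells, at 71.1 CPM per kilobase, and 2 of 31 in SP2509 cells, at 356 CPM per kilobase. TXN, ranked 2 in untreated cells, stood at 308 in siPIR, 188 in SP2509 and 186 CPM per kilobase in untreated cells. In siPIR cells TXNRD1 stood at 358 CPM per kilobase. Thus TXNRD1 was above its substrate in siPIR and SP2509 cells and below it in untreated cells on this scale. The lowest in untreated cells were AKR1C1 and AKR1B10, at 0.125 and 0.121 CPM per kilobase. The longest transcript may not be the one expressed, so the order is a description.

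**Figure D5:**
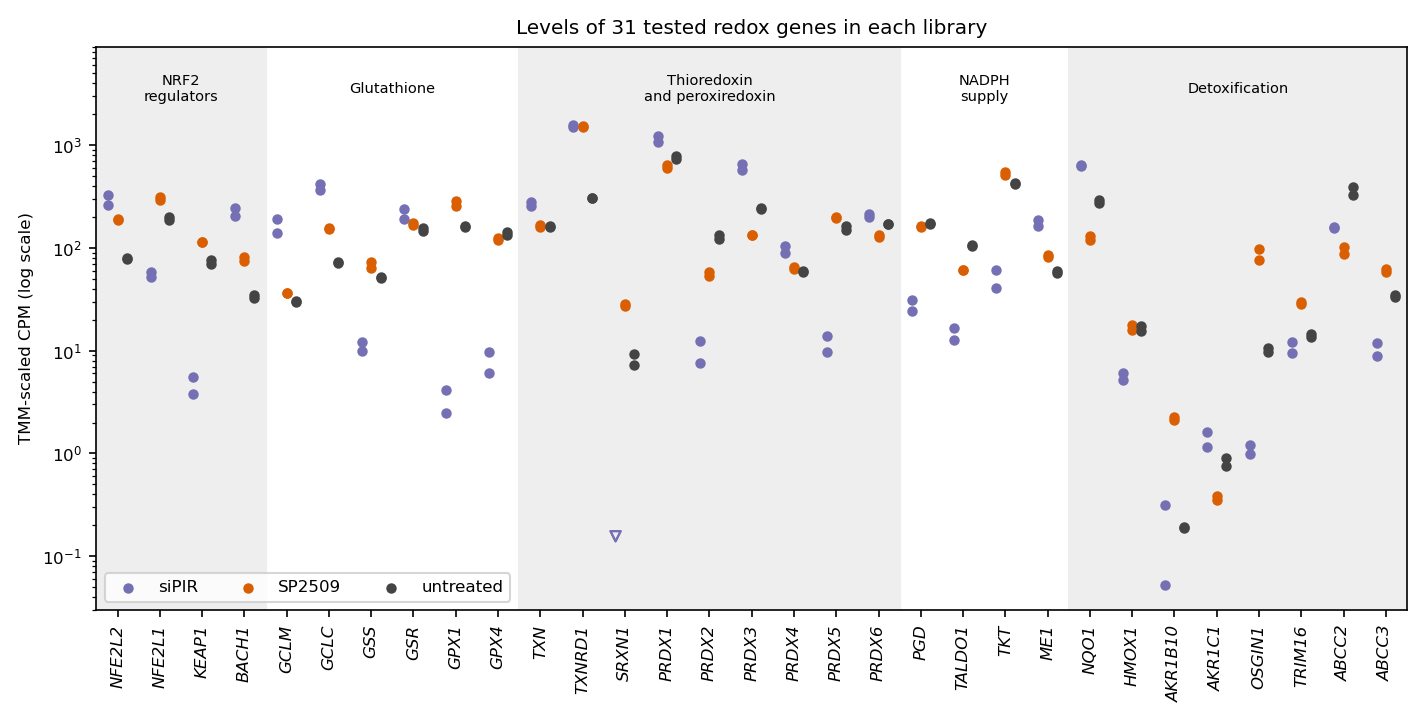
TMM-scaled CPM of each of the 31 tested genes (x axis, by role) in every siPIR, SP2509 and untreated library, on a log y axis; open triangles mark libraries at 0 counts, drawn at the level of 3 counts. TXNRD1 lies at 1496 to 1563 CPM in siPIR and SP2509 libraries, against 303 to 305 CPM in untreated ones, and SRXN1 is at 0 in both siPIR libraries.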

How the data were processed

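RNA sequencing counts of 6 HCT116 libraries in 3 groups were analysed, grouped by sample title. The authors deposited estimated counts, of which many are not whole. FastQC 0.11.8, Trimmomatic 0.32, HISAT2, featureCounts, Subread 1.6.2, edgeR 3.26.4 and GRCh38 are named per the submitters' processing notes. No annotation release, strand setting or rule for fractional counts is given in the sources used here, so reads of overlapping, antisense and near-identical genes may have been split: 24.9% of PRDX1, 17.7% of NQO1 and 14.1% of PRDX2 exon bases lie opposite another gene. The genes opposite NQO1 and PRDX2 held at most 6 and 1 counts in any library, and the one opposite PRDX1 66 to 526.

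Counts were rounded and filtered with filterByExpr. The 3 groups were fitted in edgeR 4.0.16 under R 4.3.3, with TMM scaling, a robust quasi-likelihood test and 3 residual degrees of freedom. Benjamini-Hochberg adjustment ran over 16503 genes, with a threshold of 0.05. The members and gene lists, and the offset, were chosen with earlier results of these data known. All 34 members were named, and of the other genes up to 4 per direction and comparison with the smallest adjusted p. A result for 1 gene that this rule names is not reported here. The GC-length offset used natural splines (5 degrees of freedom each) of GC content and log2 length of the longest GENCODE 29 transcript, on log2 CPM with a prior count of 0.5, and 158 tested genes without GC had no offset. The fits were tested on simulated data. Alternatives were RLE (DESeq2 size factors), upper-quartile and total-count scaling, DESeq2 1.42.0, no filter, 4-library fits, blocks, the offset and leaving out each library. Nothing in the labels says that replicates are separate cultures, so p-values measure only the spread between these libraries, which may be technical. Floors of 3 counts cover counting error only.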

Additional observations from a re-analysis of the deposited data

How the results depend on the processing

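Scaling and transcript composition moved the results most. Scaled by total counts alone, 13 of the 31 genes were lower in SP2509 than in untreated cells and 8 were higher in siPIR than in untreated cells. Of all 16503 genes, that setting called 11890 in SP2509 and 14155 in siPIR against untreated cells, in either direction. Their calls by direction were not counted there. The median of all genes in siPIR against untreated cells was -0.89 in that setting. With the GC-length offset 9 of the 31 genes were lower in siPIR than in untreated cells, beside 29.3% of all genes. The median of all genes in SP2509 against untreated cells was -0.04 with TMM, -0.27 with upper-quartile and -0.43 with total-count scaling, so directions near 0 follow the scaling. No cause of any change named here was tested, beyond what each setting does by construction.

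With the offset, log2 fold changes turned to 0.040 for GPX4, -0.046 for TXN and 0.036 for PGD in SP2509 against untreated cells. In siPIR against untreated cells they turned to 0.11 for NFE2L1, 0.071 for GPX4, -0.071 for TXN, 0.18 for PRDX5, -0.092 for PRDX6, 1.34 for HMOX1, 0.048 for AKR1B10, -0.37 for AKR1C1, 1.19 for OSGIN1, 0.94 for TRIM16 and 0.36 for ABCC3. In siPIR against SP2509 cells they turned to -0.19 for BACH1, 0.031 for GPX4, -0.025 for TXN, -0.55 for TXNRD1, 0.23 for TALDO1, -0.46 for ME1 and 1.11 for HMOX1. With total counts alone the values in SP2509 against untreated cells turned to -0.11 for GCLM, -0.21 for GSR, -0.37 for TXN, -0.28 for PRDX4, -0.060 for PRDX5, -0.059 for TKT and -0.35 for HMOX1. TXN, PRDX4 and HMOX1 passed there as lower (edgeR adjusted p = 0.00303, 0.0347 and 0.0179). In siPIR against untreated cells the values with total counts alone turned to -0.10 for GSR, -0.018 for PRDX1 and -0.36 for PRDX6. Of these PRDX6 passed as lower (edgeR adjusted p = 0.00210). In siPIR against SP2509 cells the value for TXNRD1 turned to -0.22. Upper-quartile scaling turned GSR (-0.053), TXN (-0.22), PRDX4 (-0.13) and HMOX1 (-0.20) in SP2509 against untreated cells. AKR1B10 in siPIR against untreated cells turned to 0.022 in DESeq2 and 0.070 with RLE scaling. TXNRD1 in siPIR against SP2509 cells turned to -0.034 with a block for an unexplained number in the sample descriptions and -0.090 without the count filter. With that block GCLM, GSR, GPX4 and TKT passed in SP2509 against untreated cells (edgeR adjusted p = 0.00713, 0.0331, 0.0496 and 2.99e-04). It ended the calls on AKR1C1 and TRIM16 in siPIR against untreated cells (log2 fold changes of 0.87 and -0.22). It also ended the call on GSR in siPIR against SP2509 cells (0.12). The number 10 belongs to siPIR replicate 1 alone, so in both siPIR comparisons this block leaves that library out.

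PIR in SP2509 against untreated cells lay at -0.36 under upper-quartile and -0.51 under total-count scaling, where it passed (edgeR adjusted p = 0.0224 and 0.00246), and between -0.28 and 0.053 when each library was left out. Leaving out 1 library at a time gave tested redox genes a median log2 fold change of 0.29 to 0.34 in SP2509 against untreated cells. Over all genes the median lay at -0.05 to -0.04 there. In siPIR against untreated cells the medians were -1.19 to -0.34 for the redox genes and -0.35 to -0.28 for all genes. In siPIR against SP2509 cells they were -1.63 to -1.27 and -0.28 to -0.22. In SP2509 against untreated cells TXN turned to -0.014 (without SP2509 replicate 1, range -0.014 to 0.084) and HMOX1 to -0.031 and -0.048 (without SP2509 replicate 2 or untreated replicate 2, range -0.048 to 0.14). TXNRD1 in siPIR against SP2509 cells turned in 5 of 6 such fits (range -0.023 to 0.049), and AKR1B10 in siPIR against untreated cells to 0.72 without siPIR replicate 2, which holds 1 count (range -1.78 to 0.72).

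Same-numbered replicates did not deviate together (correlations of -0.02, -0.04 and 0.08 between groups), so the numbers are not taken to pair libraries. With the replicate block, 24 genes changed in SP2509 against untreated cells, 29 in siPIR against untreated cells and 30 in siPIR against SP2509 cells. Of all 16503 genes, 11179, 14136 and 13816 changed in the same order. TKT in SP2509 against untreated cells passed (edgeR adjusted p = 0.0361) and AKR1C1 in siPIR against untreated cells did not (0.0545). With the replicate block and the offset, 9 genes were lower in siPIR than in untreated cells. There 10356 of all 16503 genes were called in either direction, and their calls by direction were not counted. The genes that turned were those that turned with the offset alone. In the order given for the offset, the values were 0.040, -0.046 and 0.037 for GPX4, TXN and PGD in SP2509 against untreated cells. In siPIR against untreated cells they were 0.11 for NFE2L1, 0.071 for GPX4, -0.072 for TXN, 0.18 for PRDX5, -0.092 for PRDX6, 1.34 for HMOX1, 0.053 for AKR1B10, -0.38 for AKR1C1, 1.17 for OSGIN1, 0.94 for TRIM16 and 0.35 for ABCC3. In siPIR against SP2509 cells they were -0.19 for BACH1, 0.030 for GPX4, -0.026 for TXN, -0.55 for TXNRD1, 0.22 for TALDO1, -0.47 for ME1 and 1.11 for HMOX1. Counts near or below 60 limit what can be said of AKR1B10 and AKR1C1, and 0 counts what can be said of GPX2, TXNIP and CBR1.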
